A study of Mus musculus with 4 samples.

Results

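The small leucine-rich proteoglycans are secreted matrix proteins built around a curved array of leucine-rich repeats, and 10 genes of this family were followed here in mouse lung: Bgn, Dcn, Lum, Fmod, Omd, Ogn, Aspn, Prelp, Podn and Epyc. They were taken by name from the 30142 genes whose array row carries exactly 1 gene symbol, all 10 were found, and each has a single row. The tested arrays came from C57BL/6 mice given bleomycin (BLM), a DNA-damaging drug that causes lung injury and fibrosis, into the trachea, and the controls from C57BL/6 mice given phosphate-buffered saline (PBS) by the same route. Lung cells lacking CD45, the surface protein of leukocytes, were collected 10 days later, and total RNA was hybridised to 1 Affymetrix array per sample, 2 arrays for BLM and 2 for PBS. The labels name no sex, age or number of animals, and they do not state whether each array had its own animal, so the p-values cover the spread among these arrays alone, and that spread may be technical.

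These proteins bind collagen fibrils through their repeats and set fibril width and spacing. Many carry chondroitin, dermatan or keratan sulphate chains or sulphated tyrosines, and several hold growth factors such as TGF-beta in the matrix or, once released, act on cell surface receptors. In the lung they are made mainly by fibroblasts and other mesenchymal cells. They are grouped in classes by sequence, with Bgn, Dcn and Aspn in class I, Fmod, Lum, Prelp and Omd in class II, Epyc and Ogn in class III and Podn in class V.

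Several of these genes lie side by side in the RefSeq gene table for GRCm38.p6. Prelp and Fmod sit near each other on chromosome 1 with Optc. Dcn, Lum and Epyc share a stretch of chromosome 10 with Kera. Aspn, Omd and Ogn follow Ecm2 on chromosome 13, inside the span of Cenpp, a centromere protein gene. Podn is on chromosome 4 and Bgn on chromosome X. The RefSeq promoter table held 8 of the 10 members, without Dcn and Lum.

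The promoter windows of the 4 members that differed most between the groups are shown with those of Aspn and Ogn, chromosome 13 genes that did not pass, to set the upstream sequence of the genes beside their response. Each is the 250 bases before a RefSeq start (GRCm38.p6), 5′ to 3′ on the gene's own strand, taken at the most upstream start where there are several. The windows are chr1:133921402-133921651 (minus strand) for Prelp, chr1:134037004-134037253 (plus) for Fmod, chrX:73483351-73483600 (plus) for Bgn, chr4:108031955-108032204 (minus) for Podn, chr13:49544193-49544442 (plus) for Aspn and chr13:49607765-49608014 (plus) for Ogn. Capitals mark matches on either strand to any of 6 motifs: TATAAA, found in core promoters; GGGCGG, bound by SP1; TGANTCA, bound by AP-1; CAGACA, bound by SMAD proteins; CATTCC, bound by TEAD; and CCAAT, bound by NF-Y.
Prelp: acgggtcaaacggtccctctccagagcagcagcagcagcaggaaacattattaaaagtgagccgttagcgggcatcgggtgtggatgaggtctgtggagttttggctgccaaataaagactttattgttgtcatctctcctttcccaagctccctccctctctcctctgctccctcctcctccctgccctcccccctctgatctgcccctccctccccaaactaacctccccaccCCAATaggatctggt
Fmod: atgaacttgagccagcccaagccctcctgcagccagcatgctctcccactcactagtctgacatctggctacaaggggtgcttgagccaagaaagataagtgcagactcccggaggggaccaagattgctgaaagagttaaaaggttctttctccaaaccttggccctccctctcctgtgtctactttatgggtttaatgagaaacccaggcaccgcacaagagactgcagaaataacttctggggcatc
Bgn: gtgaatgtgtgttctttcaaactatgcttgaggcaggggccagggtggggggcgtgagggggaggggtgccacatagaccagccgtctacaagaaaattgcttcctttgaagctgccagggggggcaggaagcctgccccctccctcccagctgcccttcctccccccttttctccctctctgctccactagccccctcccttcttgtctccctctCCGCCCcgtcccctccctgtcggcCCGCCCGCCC
Podn: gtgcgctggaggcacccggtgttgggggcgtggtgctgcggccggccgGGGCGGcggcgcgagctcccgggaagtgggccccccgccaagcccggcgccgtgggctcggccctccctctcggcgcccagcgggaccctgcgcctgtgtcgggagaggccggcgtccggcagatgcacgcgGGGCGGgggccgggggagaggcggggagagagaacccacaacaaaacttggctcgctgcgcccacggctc
Aspn: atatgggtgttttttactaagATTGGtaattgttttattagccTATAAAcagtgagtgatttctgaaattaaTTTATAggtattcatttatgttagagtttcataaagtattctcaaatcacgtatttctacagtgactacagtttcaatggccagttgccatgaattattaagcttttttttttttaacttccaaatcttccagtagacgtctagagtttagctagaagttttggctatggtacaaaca
Ogn: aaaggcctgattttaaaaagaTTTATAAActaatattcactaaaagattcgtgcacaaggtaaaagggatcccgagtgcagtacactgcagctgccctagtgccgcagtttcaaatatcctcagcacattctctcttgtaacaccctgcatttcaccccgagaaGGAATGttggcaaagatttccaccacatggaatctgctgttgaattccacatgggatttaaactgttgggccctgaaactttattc

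The Bgn window held 3 matches to GGGCGG, of which 2 overlap in the last 10 bases before the start, and the Podn window held 2. Prelp had 1 match, to CCAAT. In the Fmod, Omd and Epyc windows no match to the 6 motifs was found. Podn and Epyc each have a second RefSeq start further downstream: the second Podn window held no match, with 64.0% G and C, and the second Epyc window held 1 match to CATTCC, with 31.2%. Aspn had 2 matches to TATAAA and 1 to CCAAT, and Ogn had 2 overlapping matches to TATAAA and 1 to CATTCC. Of all 32851 promoter windows of that length, 32.7% held GGGCGG, 33.8% CCAAT, 17.1% CAGACA, 12.6% CATTCC, 12.4% TATAAA and 6.75% TGANTCA. A match is a run of letters and not a measured site. The windows differed in base composition: G and C made up 78.0% in Podn, 64.4% in Bgn, 55.6% in Prelp and 51.2% in Fmod, against 42.0% in Ogn, 39.2% in Epyc, 38.4% in Omd and 30.0% in Aspn. The median over all windows was 52.4%. This pattern was seen after the expression values were known and carries no test. Among all genes tested with a window, 3.34% of the 11947 with at least 50% G and C were higher in BLM by at least 1 log2 unit and past the threshold, and 2.03% of the 3686 under 45%.

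The deposited values are log2 expression values, so 1 unit is a 2-fold difference, and all differences below are BLM minus PBS with a standard error (SE) from limma, fitted over all 30142 genes. The words rose and fell are used for an adjusted p under 0.05 in that fit. Ptprc, the gene of CD45, lay at 7.19 and 7.20 on the BLM arrays and at 6.30 and 6.21 on the PBS arrays, where the median of all genes was 5.99 to 6.03, and it rose by 0.94 (SE 0.08, adjusted p = 0.00166). Of 19 leukocyte markers measured, 10 rose, 1 fell and 8 did not pass. Their mean level was 7.66 and 7.67 on the BLM arrays and 6.92 and 6.90 on the PBS arrays. The widest rises were those of Mrc1 by 2.51, Laptm5 by 2.49, Itgax by 2.47 and Cd68 by 2.44. The marker that fell, named after its value was seen, was Lyz2 at -1.14. Markers of epithelium, endothelium and fibroblasts had mean levels above the median of all genes on all 4 arrays. Xist, the RNA that coats the inactive X of females, stood at 5.60 and 5.43 on the BLM arrays and at 15.86 and 15.61 on the PBS arrays, while 3 Y-linked genes, Kdm5d, Uty and Eif2s3y, rose. Treatment and the sex-linked signal cannot be told apart in any result here.

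Of the 10 members, 5 rose on the BLM arrays, none fell and 5 did not pass. The 5 that rose were Prelp, Fmod, Bgn, Podn and Lum, and the first 4 of these did so by more than 1 log2 unit. Over all genes, 15.2% passed as higher, 10.1% as lower, while 2.81% passed as higher and 2.33% as lower by at least 1 log2 unit. The members were chosen with earlier results of these data known, so these shares are a background and not an independent test of the count. Of all calls, 60.1% were higher in BLM, and 49.6% after cyclic loess scaling, which left the same 5 members past the threshold. The median difference was 0.53 over the members and 0.05 over all genes tested. The arrays of the 2 groups did not overlap for any member, with 8 members higher and 2 lower in BLM, where 38.0% of all genes lay wholly higher and 25.3% wholly lower. In bulk RNA, a larger share of the cells that make a proteoglycan and more RNA per cell cannot be told apart.

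**Figure D1:**
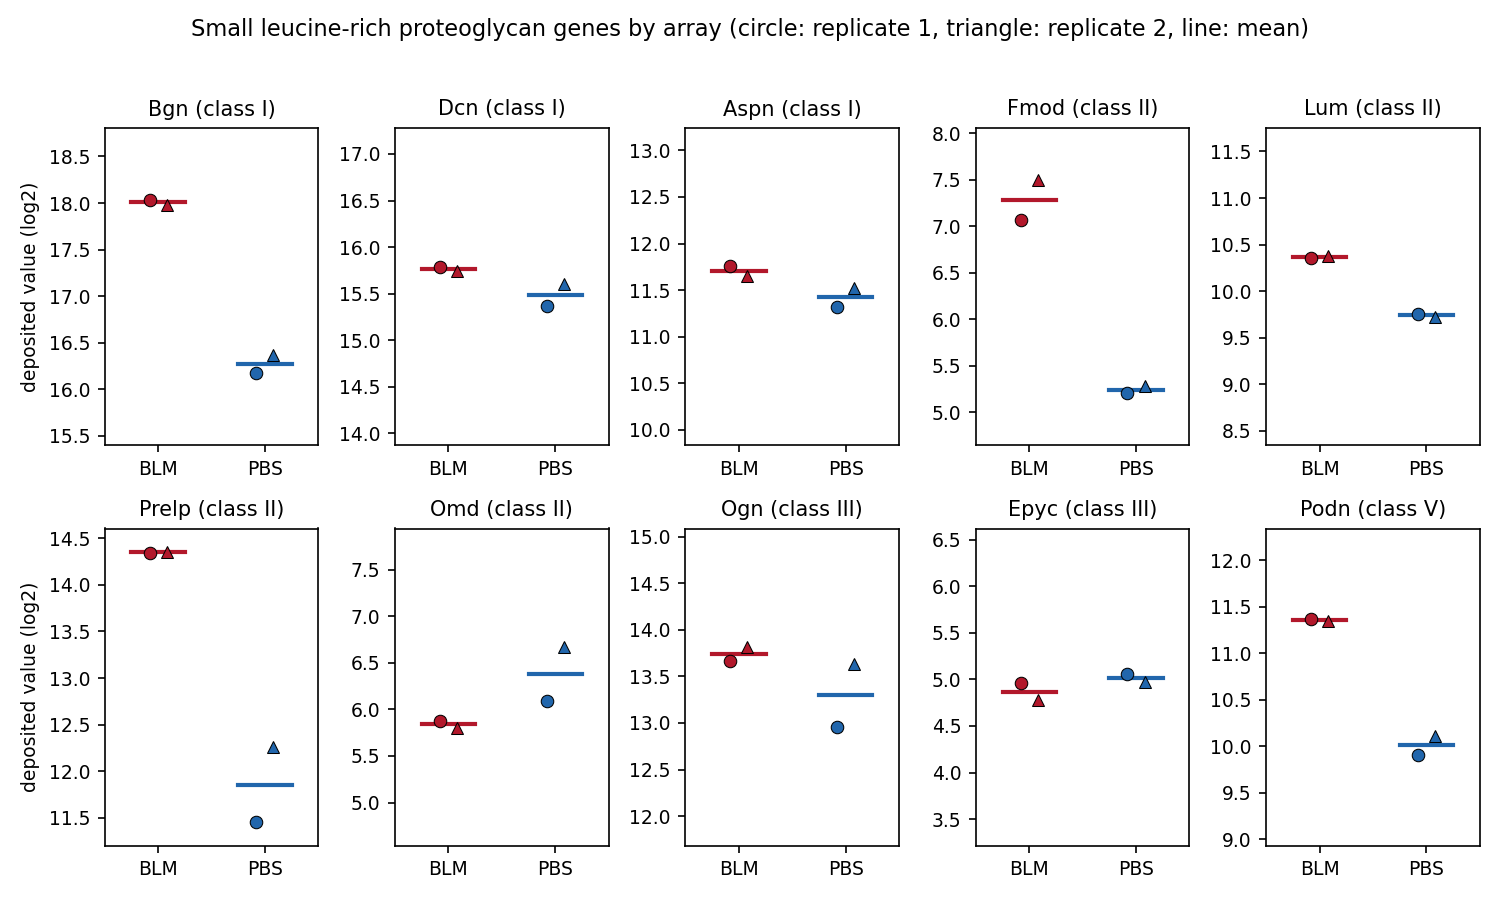
Deposited log2 values of the 10 members on each array, with BLM left of PBS in every panel, circles for replicate 1, triangles for replicate 2 and lines for group means. All panels span the same number of log2 units but start at different levels, since levels of different probes are not comparable. Prelp, Fmod, Bgn and Podn show wide gaps between the groups, and Ogn, Omd and Prelp show wide gaps between the 2 PBS arrays.

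Class I holds the genes with the closest sequence to decorin. Bgn encodes biglycan, which binds collagen and, once released from the matrix, signals through Toll-like receptors. Bgn was at 18.03 and 17.98 on the BLM arrays, against 16.17 and 16.37 on the PBS arrays. Both BLM arrays lay well above both PBS arrays, and Bgn rose by 1.74 (SE 0.10, 95% interval 1.49 to 1.99, adjusted p = 0.000549), or 3.34-fold, the 224th highest difference of all genes. These levels are near the top of the scale, where 197 to 206 genes per array exceeded 16, the most a 16-bit scan can give in log2, and what scaling lies behind that is not given in the sources used here.

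Because Bgn is X-linked and Xist separated the groups, the X chromosome was described beside it. Of 1826 X-linked genes tested, 11.8% rose, against 15.4% of 27929 autosomal genes, and their median difference was 0.06, against 0.05 for autosomal genes. Among the X-linked genes, 5 had a higher difference than Bgn. The part of the sex-linked signal in the Bgn value was not tested.

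Dcn encodes decorin, the family's founding member, which coats collagen fibrils, binds TGF-beta and acts on the receptors EGFR and MET. It was at 15.79 and 15.75 on the BLM arrays and at 15.37 and 15.61 on the PBS arrays. The BLM values were higher by 0.28 (SE 0.11, 95% interval 0.01 to 0.55, adjusted p = 0.124), which did not pass, and after cyclic loess the difference was 0.11. Aspn encodes asporin, a relative with an aspartate-rich start that binds collagen and TGF-beta. It stood at 11.75 and 11.65 on the BLM arrays and at 11.32 and 11.53 on the PBS arrays, a difference of 0.28 (SE 0.11, adjusted p = 0.118) that also did not pass and was 0.10 after cyclic loess. For both genes PBS replicate 2 was the PBS array nearer to BLM.

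Taking Dcn as a yardstick within each array removes only what changes both genes by the same log2 amount on that array. Dcn was itself higher in BLM by 0.28, and this amount is taken off every difference relative to it. The Bgn value exceeded the Dcn value by 2.25 and 2.23 on the BLM arrays and by 0.81 and 0.76 on the PBS arrays, so Bgn differed by 1.46 more than Dcn. The same measure for Aspn was -4.03 and -4.10 on the BLM arrays and -4.05 and -4.08 on the PBS arrays, and these overlapped. The difference between the groups in Aspn relative to Dcn was -0.0016. For Prelp it was 2.22, for Fmod 1.76, for Podn 1.07 and for Lum 0.34, each with no overlap between groups. It was -0.82 for Omd and -0.43 for Epyc, lower in BLM and also with no overlap, and 0.16 for Ogn, where the groups overlapped. The share of all genes with no overlap relative to Dcn was not computed. For the values themselves, 38.0% of all genes lay wholly higher and 25.3% wholly lower in BLM, so a lack of overlap is common. An exact two-sided permutation test of 2 arrays against 2 cannot give a p below 0.333, and any gene with no overlap must get that value. The test gave 0.333 for each of these members except Ogn, where it gave 0.667, and Aspn, where it gave 1. For the members with no overlap the p-value thus only restates the lack of overlap.

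Class II showed both the highest and the lowest difference among the members. Prelp encodes a proline- and arginine-rich protein that links basement membranes to collagen and binds heparan sulphate. Prelp was at 14.34 and 14.36 on the BLM arrays, against 11.45 and 12.26 on the PBS arrays. It rose by 2.50 (SE 0.26, 95% interval 1.84 to 3.15, adjusted p = 0.00258), or 5.64-fold, the 76th highest of all genes. The PBS arrays differed from each other by 0.81, so the size ranged from 2.09 without PBS replicate 1 to 2.90 without PBS replicate 2, and it passed either way.

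Fmod encodes fibromodulin, which carries keratan sulphate and sulphated tyrosines and steers collagen fibril growth and crosslinking. It was at 7.07 and 7.50 on the BLM arrays and at 5.21 and 5.28 on the PBS arrays. Fmod rose by 2.04 (SE 0.15, 95% interval 1.65 to 2.43, adjusted p = 0.00111), or 4.11-fold. Its PBS values lay below the median of all genes. The 23 background controls ran from 2.82 to 7.07 on PBS replicate 1 and from 2.79 to 6.39 on PBS replicate 2. Both PBS values of Fmod lay within these ranges, above the control medians of 3.75 and 3.60. Whether these values stand above background was not tested.

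Lum encodes lumican, a keratan sulphate proteoglycan known for collagen spacing in the cornea. Lum was at 10.35 and 10.37 on the BLM arrays and at 9.76 and 9.72 on the PBS arrays. The arrays of a group differed by 0.02 in BLM and by 0.03 in PBS, and Lum rose by 0.62 (SE 0.08, 95% interval 0.42 to 0.82, adjusted p = 0.00481), or 1.54-fold. Its 95% interval lay below that of Prelp.

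Omd encodes osteomodulin, also called osteoadherin, a keratan sulphate proteoglycan of mineralised tissue. It was at 5.88 and 5.80 on the BLM arrays and at 6.10 and 6.68 on the PBS arrays. The BLM values were lower by 0.54 on the log2 scale (difference -0.54, SE 0.20, adjusted p = 0.106), which did not pass. Without PBS replicate 1 the difference was -0.83 and passed (adjusted p = 0.0131), and without PBS replicate 2 it was -0.25 (adjusted p = 0.17), so a single array decides it. Both BLM values lay below the median of all genes and within the range of the background controls.

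Class III showed no member past the threshold. Ogn encodes osteoglycin, also called mimecan, a collagen-binding protein of connective tissue and vessel walls. Ogn was at 13.66 and 13.82 on the BLM arrays, against 12.96 and 13.64 on the PBS arrays. PBS replicate 2 lay just under the lower BLM array and PBS replicate 1 well under it, and the difference was 0.44 (SE 0.23, 95% interval -0.13 to 1.02, adjusted p = 0.226). It was 0.10 without PBS replicate 1 and 0.78 without PBS replicate 2, where it passed (adjusted p = 0.0178). Epyc encodes epiphycan, a cartilage proteoglycan, and was at 4.96 and 4.78 on the BLM arrays and at 5.05 and 4.98 on the PBS arrays. These levels lie below the median of all genes and within the range of the background controls on every array. The difference was -0.14 (SE 0.10, adjusted p = 0.352).

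Podn, the class V member, encodes podocan, a collagen-binding protein found in vessel walls. It was at 11.37 and 11.35 on the BLM arrays and at 9.90 and 10.11 on the PBS arrays. Podn rose by 1.35 (SE 0.10, 95% interval 1.09 to 1.61, adjusted p = 0.0011), or 2.55-fold, the 411th highest of all genes.

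**Figure D2:**
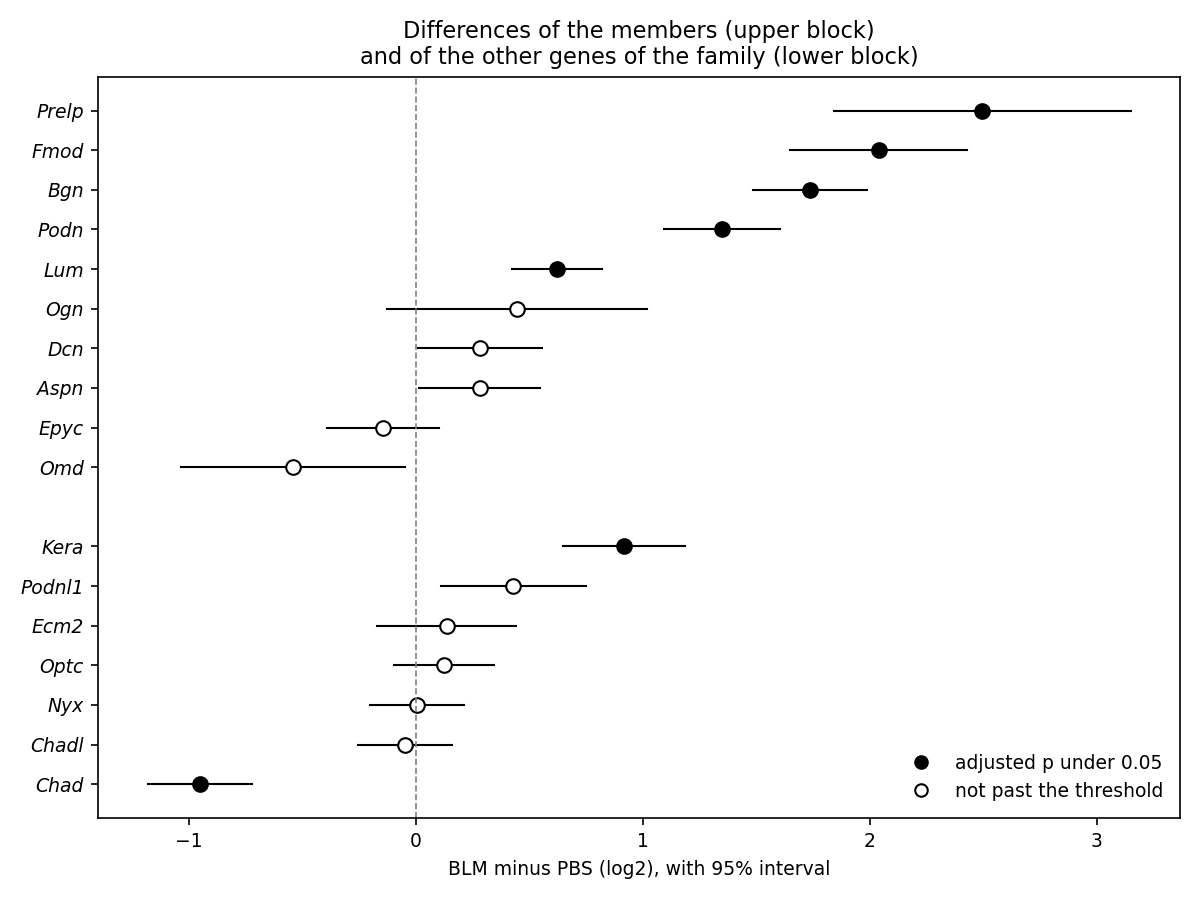
Differences between BLM and PBS (log2, horizontal axis) with 95% intervals from the limma fit, for the 10 members in the upper block and 7 other genes of the family in the lower block. Filled points passed an adjusted p of 0.05: Prelp, Fmod, Bgn, Podn, Lum and Kera were higher and Chad was lower in BLM.

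In order of size the differences ran Prelp 2.50, Fmod 2.04, Bgn 1.74, Podn 1.35, Lum 0.62, Ogn 0.44, Dcn 0.28, Aspn 0.28, Epyc -0.14 and Omd -0.54. The 95% intervals of Prelp, Fmod and Bgn overlap one another, as do those of Bgn and Podn, while the Podn interval lies wholly above that of Lum. The intervals of Lum, Ogn, Dcn and Aspn overlap. The differences between members were not tested.

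Neighbouring genes were set side by side. On chromosome 1, Prelp and Fmod differed by 2.50 and 2.04, while Optc, the gene of the eye protein opticin next to Prelp, differed by 0.12 (adjusted p = 0.374). On chromosome 10, Lum rose by 0.62 and Kera, the gene of the corneal protein keratocan, rose by 0.92, while Dcn and Epyc at either end of the row stood at 0.28 and -0.14. Kera was at 5.65 and 5.83 on the BLM arrays and at 4.90 and 4.75 on the PBS arrays. These values lay below the median of all genes and within the range of the background controls on each array. None of the chromosome 13 genes passed, with Aspn at 0.28, Ogn at 0.44, Omd at -0.54 and Ecm2, which encodes a matrix protein with the same repeats, at 0.13 (adjusted p = 0.482). Cenpp, whose span in RefSeq holds these 4 genes, differed by 0.10 (adjusted p = 0.645).

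Of the other genes of the family, 7 of 8 were measured, 1 rose, 1 fell and 5 did not pass, with a median difference of 0.12. That is 1 of 7 in each direction, beside 15.2% higher and 10.1% lower over all genes, so the counts are near the background. Kera was the gene that rose. The gene that fell was Chad, the gene of the cartilage protein chondroadherin, which binds integrins. Chad was at 7.20 and 7.06 on the BLM arrays and at 8.12 and 8.05 on the PBS arrays, and it fell by 0.95 on the log2 scale (SE 0.09, adjusted p = 0.00208). Podnl1, a relative of Podn, stood at 0.43 (adjusted p = 0.0632) and passed without PBS replicate 1 (0.59, adjusted p = 0.0267). Chadl and the X-linked eye gene Nyx stood at -0.05 and 0.004. Tsku was not analysed here.

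The 2 PBS arrays were not alike for this family. Of the 10 members, 8 were higher on PBS replicate 2 than on PBS replicate 1, with a median difference between these arrays of 0.21, while 47.2% of all genes were higher on PBS replicate 2 and the median over all genes was -0.01. The gap was 0.81 for Prelp, 0.68 for Ogn and 0.58 for Omd, where the mean absolute gap between the PBS arrays over all genes was 0.16. Between the BLM arrays, 4 members were higher on replicate 2, the median was -0.03 and the widest gap was 0.43, for Fmod. Mesothelial markers moved the same way as the members: all 8 were higher on PBS replicate 2, by a median of 0.22. Endothelial markers were higher there in 8 of 10 cases, by a median of 0.16. Fibroblast markers were higher there in 4 of 9 cases (median -0.03) and collagens that the family binds in 3 of 10 (median -0.08). Col1a1, Col1a2 and Col3a1 are in both of these lists and were lower there. Those fibroblast markers higher there, named after their values were seen, were Tcf21 by 0.46, Pi16 by 0.33, Dcn by 0.24 and Fn1 by 0.05. Smooth muscle and pericyte markers were higher there in 7 of 10 cases, by a median of 0.02. The sex-linked genes also differed between the PBS arrays: PBS replicate 2 was higher than PBS replicate 1 by 0.89 for Eif2s3y, 0.65 for Uty and 0.33 for Kdm5d, and its Xist value was lower (difference -0.25). These 4 genes thus lay nearer to the BLM arrays on PBS replicate 2. The part of these cells and of the sex-linked signal in the members' values was not tested.

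**Figure D3:**
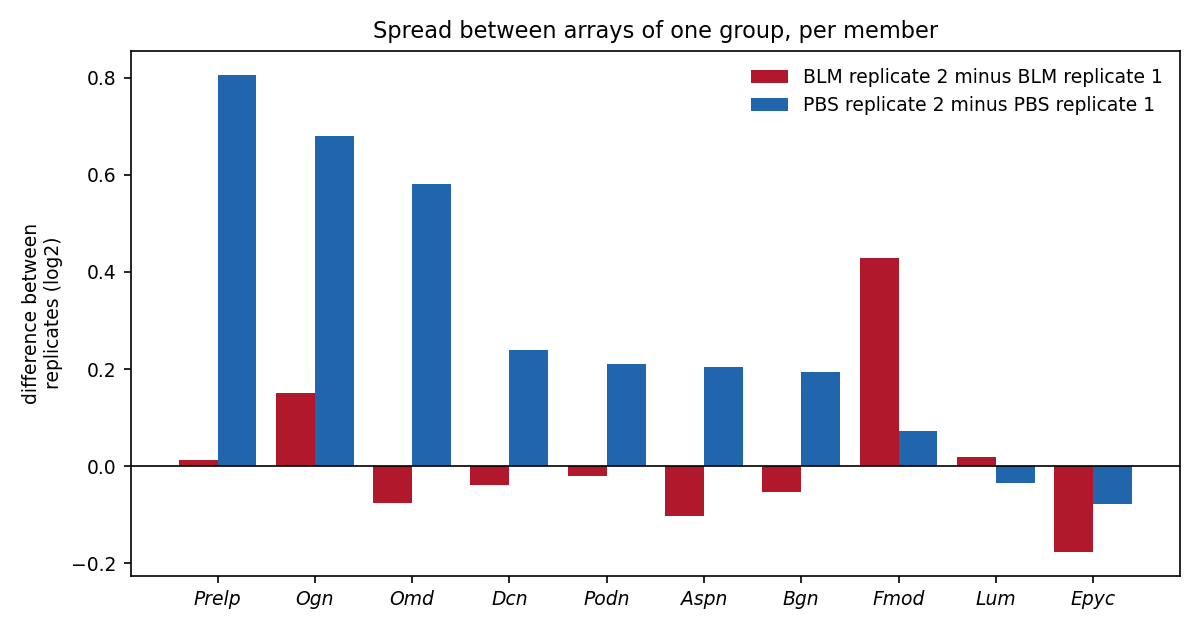
Difference between the 2 arrays of a group for each member (log2, replicate 2 minus replicate 1), with BLM bars left of PBS bars and members ordered by the PBS gap. PBS replicate 2 was higher for 8 members, by as much as 0.81 for Prelp, while Fmod had the widest BLM gap at 0.43.

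Cell type markers that moved between the groups are given beside these results. Mesothelial markers rose in 5 of 8 cases and fell in none. Their mean level was 8.09 and 8.17 on the BLM arrays and 7.25 and 7.55 on the PBS arrays. Among them Upk1b rose by 2.31, Msln by 1.28, Lrrn4 by 1.02 and Upk3b by 0.92. Upk3b did not pass without BLM replicate 1 or without BLM replicate 2. The 3 mesothelial markers that did not pass in the fit reported were Wt1, Bnc1 and Rspo1. Fibroblast markers rose in 7 of 9 cases, with a mean level of 13.41 and 13.39 on the BLM arrays and 11.24 and 11.33 on the PBS arrays, and the list holds Dcn and Lum themselves and 3 collagens named later. Smooth muscle and pericyte markers rose in 5 of 10 cases and fell in 2, with Pdgfrb at 2.88 and Myh11 at -1.08. Endothelial markers rose in 5 of 10 and fell in 1, with Emcn at 2.63 and Vwf at -0.86. Epithelial markers fell in 4 of 9 and rose in none, with Scgb1a1 at -1.68. Over all genes, 15.2% passed as higher and 10.1% as lower, the shares to set beside these counts and those of the lists below. Of 10 cartilage and tendon markers, 3 rose, Sox9 by 0.85, Col2a1 by 0.54 and Col11a1 by 0.38, and 7 did not pass, among them the cartilage proteoglycan gene Acan at -0.13. Without any 1 of the 4 arrays Col11a1 did not pass (adjusted p up to 0.129), nor did Col2a1 without BLM replicate 2 (0.0627). The part of each cell type in the members' values was not tested.

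Of 10 collagens that the family binds, 9 rose, each by more than 1 log2 unit, and their median difference was 2.21, against 0.53 for the members. The fibril collagens Col1a1, Col3a1 and Col1a2 rose by 4.28, 3.60 and 3.12, and Col5a2 and Col5a1, which start fibrils, by 2.72 and 1.19. The beaded-filament collagens Col6a3, Col6a2 and Col6a1 rose by 2.76, 1.21 and 1.08, and the fibril-associated Col12a1 by 1.70. Col14a1, also fibril-associated, stood at 0.12 (adjusted p = 0.417). Dcn and Aspn, at 0.28, were thus closer in size to Col14a1 than to the fibril collagens, while Prelp, Fmod and Bgn lay between Col12a1 and Col5a2.

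**Figure D4:**
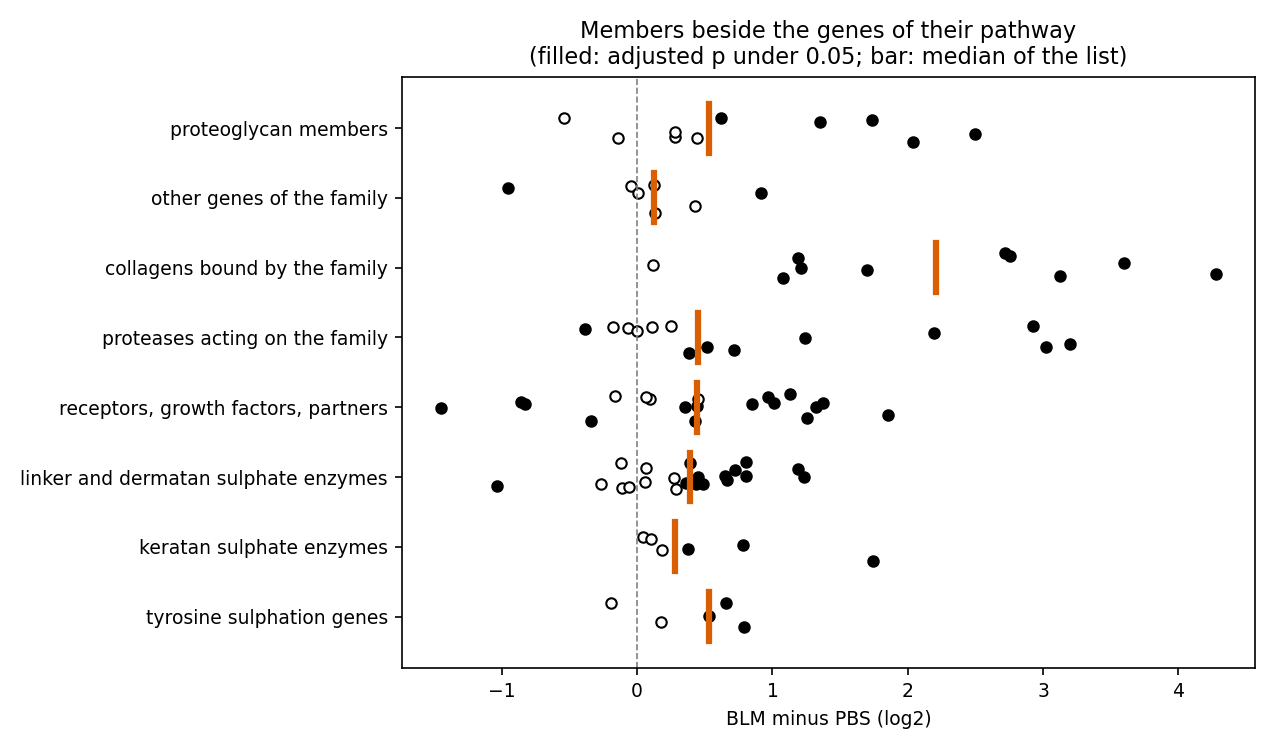
Differences between BLM and PBS (log2, horizontal axis) for the members and for 7 lists of genes related to them, 1 point per gene, filled where the adjusted p was under 0.05, with an orange bar at each list's median. The medians were 0.53 for the members, 2.21 for the collagens bound and between 0.12 and 0.53 for the other 6 lists.

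Among 14 proteases that cleave these proteins or their relatives, 8 rose, 1 fell and 5 did not pass, with a median of 0.45. With the replicate number as a block, 7 rose and 1 fell. The collagenase and gelatinase genes Mmp14 and Mmp2 rose by 3.20 and 3.02 and the macrophage elastase gene Mmp12 by 2.93, while 10 of 19 leukocyte markers also rose. Adamts4, an aggrecan-cleaving protease gene, was at 7.76 and 8.24 on the BLM arrays and at 5.81 and 5.81 on the PBS arrays and rose by 2.19 (SE 0.17, adjusted p = 0.00113). The fall was that of Bmp1, the protease that removes the propeptide of biglycan, at -0.38 (adjusted p = 0.0218); it is named after its value was seen and did not pass without any 1 of the 4 arrays (adjusted p 0.0583 to 0.115).

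Of 19 receptors, growth factors and partners of the family, 11 rose, 4 fell and 4 did not pass, with a median of 0.44. With the replicate number as a block, 9 rose and 3 fell. The growth factor genes Tgfb1 and Tgfb3, whose products decorin and biglycan bind, rose by 1.85 and 1.32, and the endocytic receptor gene Lrp1 by 1.37. The hepatocyte growth factor receptor gene Met, a target of decorin, was at 8.78 and 8.72 on the BLM arrays and at 10.16 and 10.23 on the PBS arrays and fell by 1.45 on the log2 scale (SE 0.08, adjusted p = 0.000549). Vwf fell by 0.86 on the log2 scale. The genes named next were chosen after their values were seen. Igf1r fell by 0.83, as did P2rx4 by 0.34, which did not pass with any 1 array left out (adjusted p 0.0786 to 0.231) and with the replicate number as a block (0.0835). The biglycan receptor gene Tlr2 rose by 1.01, while Tlr4 stood at 0.10 (-0.02 without PBS replicate 1). Egfr rose by 0.44, without a call when BLM replicate 1 (adjusted p = 0.0773), BLM replicate 2 (0.163) or PBS replicate 1 (0.115) was left out or after cyclic loess (0.066).

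The sugar chains are built and modified by separate sets of enzymes. Of 21 measured genes for the linker and for chondroitin and dermatan sulphate, 12 rose, 1 fell and 8 did not pass, with a median of 0.39. The count that rose was 6 without BLM replicate 1, 7 without BLM replicate 2, 7 without PBS replicate 1 and 9 without PBS replicate 2. Dse, the epimerase that turns chondroitin into dermatan sulphate, was at 10.19 and 10.43 on the BLM arrays and at 8.99 and 9.16 on the PBS arrays and rose by 1.23 (SE 0.12, adjusted p = 0.00215). The chondroitin synthase gene Chsy3 rose by 1.19 and the sulphotransferase gene Chst11 by 0.81, and Csgalnact2, which starts chondroitin chains, fell by 1.04 on the log2 scale.

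For keratan sulphate, carried by Fmod, Lum and Omd, 3 of 6 genes rose, none fell and 3 did not pass, with a median of 0.28. The sulphotransferase genes Chst2 and Chst1 rose by 1.74 and 0.78. B3gnt7, which extends the chain, rose by 0.37 but did not pass with any 1 array left out (adjusted p 0.0812 to 0.188), with the replicate block (0.0619) and after cyclic loess (0.052). For tyrosine sulphation, 3 of 5 genes rose, none fell and 2 did not pass, with a median of 0.53. The sulphate donor transporter gene Slc35b2 rose by 0.79 and the sulphotransferase genes Tpst2 and Tpst1 by 0.66 and 0.53, and neither Tpst2 (adjusted p = 0.0533) nor Tpst1 (0.0717) passed when BLM replicate 1 was left out.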

How the data were processed

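The authors deposited log2 values, 1 per transcript cluster and array. The submitters' processing notes name RMA and Affymetrix Expression Console. No version, genome build or further scaling step is stated there. Of 72688 features, 30604 carried exactly 1 gene symbol, 827 symbols were updated through Entrez identifiers, and the row with the highest mean was kept per gene, which left 30142 genes. Rows with several symbols or none were not tested. No detection calls were used, and the number of arrays limits the precision.

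A two-sided test of group, with no other term, was fitted by limma 3.58.1 (lmFit, then eBayes; R 4.3.3). Its p-values were Benjamini-Hochberg adjusted across the 30142 genes, and 0.05 was the threshold. The fit had 2 residual and 3.33 prior degrees of freedom, the median SE was 0.097 and the smallest difference called was 0.29. The script was tested on simulated data. Members and lists were chosen with earlier results of these data known. Named genes were all members, the other genes of the family, the collagens bound, and up to 4 genes per further list with the largest difference past the threshold, except where the text says otherwise. Same-numbered arrays shared no clear deviation (correlation across genes 0.01, with only 2 pairs), and the labels do not say that numbers pair samples. Alternatives were the replicate number as a block, each array left out, a filter on genes with a mean below 6.03, the mean of a gene's rows, median centring, a prior that was trended and robust, leaving out X and Y genes, and cyclic loess. Promoters are RefSeq windows (GRCm38.p6).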

Additional observations from a re-analysis of the deposited data

How the results depend on the processing

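The number of members that rose was 5 in the fit reported and 5 to 6 without each array in turn, the sixth being Ogn, whose difference ran from 0.10 to 0.78 over these omissions. It was 4 without X and Y genes, where Bgn is not tested, and 5 under every other alternative run. The number that fell was 0, and 0 to 1 without each array, the 1 being Omd, at -0.83 to -0.25. With the replicate number as a block 5 members passed, Prelp at 2.50 (adjusted p = 0.00388), Lum at 0.62 (0.0137); all genes called as higher numbered 4057, against 4582 without it. The block ended the calls of P2rx4 and B3gnt7, given beside their values, and no other call of a gene named in the text. Lyz2 and Tcf21 are left out of that statement, as they were not followed under the alternatives.

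Among the lists, the linker and dermatan sulphate genes that rose numbered 6 to 9 without each array in turn, the tyrosine sulphation genes 1 to 3, the other family genes 1 to 2, and the proteases that fell 0 to 0. The filter on dim genes left 0 other family genes that rose, since Kera was below it. Linker and dermatan sulphate genes that fell numbered 2 under that filter, with the trended and robust prior and with cyclic loess. All genes called numbered 2333 higher and 1670 lower without BLM replicate 1, and 2690 and 1689 without BLM replicate 2. Differences near 0 changed sign for Nyx (-0.024 without BLM replicate 2, -0.030 without PBS replicate 2, -0.017 after median centring, -0.036 with cyclic loess, at most 0.038 without an array), Ecm2 (-0.0088 to 0.28 without each array), Tlr4 (-0.021 to 0.21), Cenpp (-0.071 to 0.27) and Col14a1 (-0.037 with cyclic loess). The cause of these changes was not tested. In the fit reported, the smallest difference called was 0.29.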
